A study of Mus musculus with 4 samples.

Results

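The voltage-gated and potassium ion channel genes were described in RNA of primary mouse oligodendrocytes, from cells with a knockout of the long noncoding RNA lncOL1 and from control cells. The members were taken by their symbols: those made of Kcn, further letters and a number, those made of Scn, a number and a or b, and those that start with Cacna, Cacnb or Cacng, 1 gamma subunit symbol left out. This gave 130 genes of 23435 symbols, of which 92 belong to potassium, 13 to sodium and 25 to calcium channel families. The rule itself uses no expression value.

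The 2 lncOL1KO libraries, labelled lncOL1-/-, were set against 2 Ctrl libraries, whose genotype label names both lncOL1+/+ and lncOL1+/- without telling them apart, so a control may carry 1 deleted allele. All 4 come from oligodendrocyte precursor cells of a mixed strain background, kept for 1 day with T3, the thyroid hormone that starts their differentiation in culture. The sources used here give neither the purification of the precursors nor the extent of the deletion at lncOL1. They also do not say whether each library is its own animal or culture, so a p-value speaks of the spread between libraries, which may be technical.

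Potassium channels set the resting potential of glia and, in oligodendrocytes, the inward rectifiers take up the potassium that active axons release. Voltage-gated potassium and sodium channels are known above all from neurons, but oligodendrocyte precursors carry both, and the delayed and A-type potassium currents shrink as the cells mature. Voltage-gated calcium channels, many of them built from a pore-forming alpha1 subunit with beta and alpha2delta subunits, let calcium into precursor processes. Most gamma subunits are better known as TARPs, which traffic and tune AMPA-type glutamate receptors.

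lncOL1 (9630013A20Rik) had 5.54 and 5.06 FPKM in lncOL1KO libraries, against 28.9 and 34.0 FPKM in Ctrl libraries (log2 fold change -2.36, limma adjusted p = 0.000389). FPKM counts fragments per transcript length and library size, so levels of different genes can be compared. The number of genes at 1 FPKM or more was 11284 to 11357 per library, among them 37 or 38 of the 130 channel genes. All 12 markers of the oligodendrocyte lineage had means above 1 FPKM, and their sum was 8940 and 9116 FPKM in lncOL1KO, against 10648 and 10717 FPKM in Ctrl. The myelin protein gene Mbp fell to 1501 and 1520 FPKM in lncOL1KO, against 2683 and 2655 FPKM in Ctrl (log2 fold change -0.82, limma adjusted p = 0.00504, 0.0608 to 0.139 with single libraries left out). Mbp carried most of the lower sum, and 7 of the 12 lineage markers had a positive log2 fold change (median 0.04), among them Olig2 at 283 and 303 FPKM in lncOL1KO and 258 and 253 FPKM in Ctrl, and Cspg4 at 3.64 and 4.14 FPKM in lncOL1KO and 3.11 and 3.07 FPKM in Ctrl. Astrocyte markers were uneven in level, and their 10 genes summed to 740.5 and 706 FPKM in lncOL1KO, against 791 and 747 FPKM in Ctrl libraries. Of 9 tested, 1 had a positive log2 fold change, Fgfr3, at 9.76 and 10.2 FPKM in lncOL1KO and 8.67 and 8.70 FPKM in Ctrl. Gja1 was at 2.37 and 2.23 FPKM in lncOL1KO and 3.39 and 3.40 FPKM in Ctrl. Gfap was at 208 and 196 FPKM in lncOL1KO and 237 and 211 FPKM in Ctrl libraries. Gjb6 was at 0 in both lncOL1KO libraries and at 0.0549 and 0.0449 FPKM in Ctrl. Markers of rarer cell types were low. The 10 microglia markers summed to 21.0 and 22.8 FPKM in lncOL1KO, against 11.4 and 13.1 FPKM in Ctrl, and Tyrobp and Laptm5 among them were called higher. The 11 vascular, mural and fibroblast markers summed to 19.7 and 19.2 FPKM in lncOL1KO, against 10.5 and 11.2 FPKM in Ctrl. Most of that sum was Tagln and Acta2, both called higher. The list did not go one way: Pdgfrb, Col1a1, Col1a2, Dcn and Lum had both lncOL1KO values below both Ctrl values, with Col1a1 at 0.522 and 0.274 FPKM in lncOL1KO and 0.592 and 0.688 FPKM in Ctrl. Lum was at 0 in both lncOL1KO libraries and Cldn5 at 0 in both Ctrl libraries. The 4 calls of Tyrobp, Laptm5, Tagln and Acta2 were each lost with at least 2 of the 4 libraries left out singly, and with no filter on low values neither these nor Mbp were called (adjusted p 0.0600 to 0.159). The part of these markers in the channel results was not tested.

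The channel genes spanned the whole range of expression. Averaged over the 4 libraries, 7 of the 130 genes stood at 10 FPKM or more and 30 between 1 and 10 FPKM. Another 79 were above 0 with a mean under 1 FPKM, 41 of them under 0.1 FPKM, and 14 were listed at 0 in all 4 libraries. Thus 28.5% of the channel genes reached the mean of 1 FPKM needed to enter the tests, against 48.5% of all symbols. Summed over all members, the level was 392.9 and 405.8 FPKM in lncOL1KO libraries, against 384.1 and 391.1 FPKM in Ctrl libraries. Kcnj10 and Cacng7 alone made up 43.3% to 45.7% of that sum in each library.

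**Figure D1:**
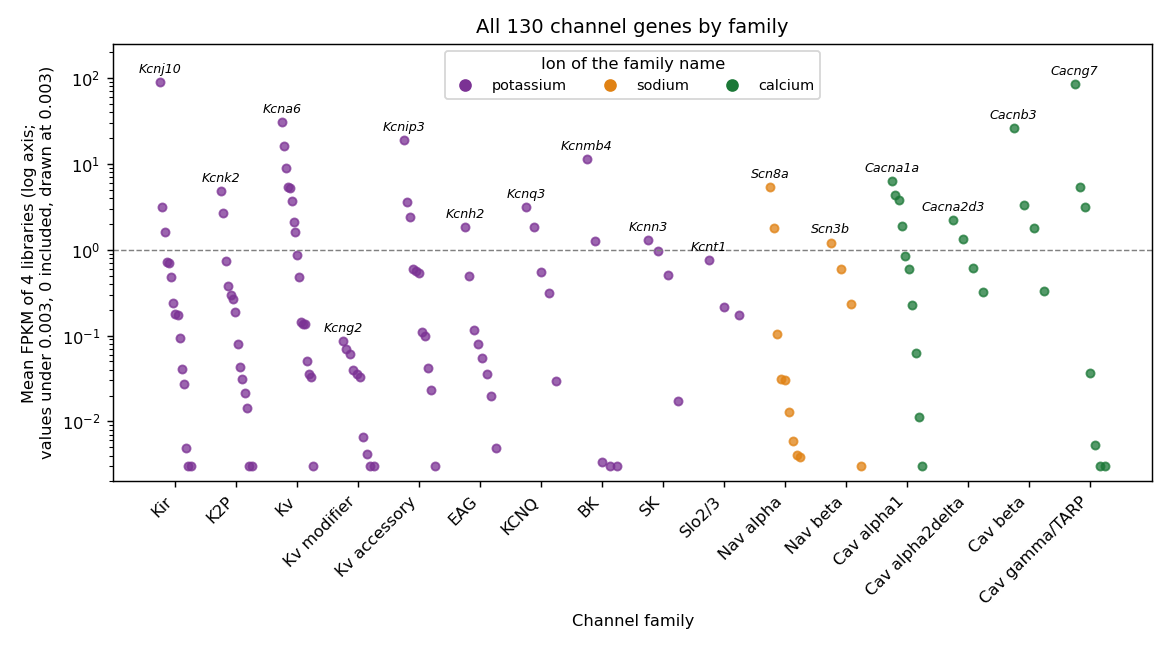
Mean FPKM over the 4 libraries (log axis) of each of the 130 channel genes, in columns by family, coloured by the ion of the family name. The highest gene of each family is named, the dashed line marks the 1 FPKM needed for testing, and most families hold 1 or 2 genes well above the rest.

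Among the 15 inward rectifier genes, Kcnj10 stood far above all others. Kcnj10 encodes the weakly rectifying channel Kir4.1, the main inward rectifier of mature glia, and held 92.4 and 93.0 percent of the summed FPKM of its family in lncOL1KO libraries, against 91.8 and 92.6 percent in Ctrl libraries. It had 91.1 and 86.4 FPKM in lncOL1KO, against 89.8 and 94.2 FPKM in Ctrl libraries. The groups overlapped, and the log2 fold change was -0.05 with a 95% interval of -0.22 to 0.12 (limma adjusted p = 0.838). Astrocytes also depend on Kcnj10, and their part in its level was not tested. In bulk RNA, fewer cells of a type and less RNA per cell cannot be told apart. Kcnj16, whose product joins Kir4.1 in a mixed channel, stayed under the testing limit at 0.939 and 0.782 FPKM in lncOL1KO and 0.675 and 0.492 FPKM in Ctrl.

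Kcnj12 was the 1 channel gene, of 37 tested, called different between the genotypes (adjusted p under 0.05). Of all genes tested, 1.31% were called in either direction and 0.783% were called lower. It encodes Kir2.2, a strong inward rectifier, and spans chr11:61022564-61073267 in the files (mm10). It fell to 1.004 and 0.651 FPKM in lncOL1KO libraries, against 2.38 and 2.45 FPKM in Ctrl libraries, so the groups stood apart without overlap. The knockout mean was 0.343 of the control mean. On the log2(FPKM + 1) scale, which understates changes of low genes, the log2 fold change was -0.91 (SE 0.123, 95% interval -1.20 to -0.61, limma adjusted p = 0.0263). With a pseudocount of 0.1 it was -1.46 (adjusted p = 0.0304). The authors' deposited table lists Kcnj12 at 0.718 FPKM in the knockout and 2.24 FPKM in the control (log2 fold change -1.64, q = 3.61e-11).

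The call of Kcnj12 was lost when any 1 library was left out, with an adjusted p of 0.145 and 0.147 without Ctrl replicates 1 and 2 and of 0.0726 and 0.144 without lncOL1KO replicates 1 and 2. The log2 fold change stayed between -1.05 and -0.77 in these fits. It was also lost with no filter on low values (adjusted p = 0.103) and after quantile normalization (adjusted p = 0.0860). Kcnj12 entered the tests through its control values, since its knockout mean was 0.828 ± 0.250 FPKM and its control mean 2.41 ± 0.0552 FPKM (SD, n = 2 each).

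The other strong rectifiers of the same subfamily were low in all 4 libraries. Kcnj4 had 0.646 and 0.705 FPKM in lncOL1KO and 0.795 and 0.620 FPKM in Ctrl libraries, and Kcnj2 had 0.193 and 0.174 FPKM in lncOL1KO and 0.0936 and 0.225 FPKM in Ctrl. Kcnj3, a subunit of G protein-gated rectifiers, was at 3.70 and 3.09 FPKM in lncOL1KO and 3.06 and 2.69 FPKM in Ctrl (log2 fold change 0.18, limma adjusted p = 0.534). About 31.1% of its annotated exon bases are shared with Gm26794, a noncoding gene on the opposite strand. The subunits of the ATP-sensitive channel were near 0, with Kcnj11 at 0.0992 and 0.119 FPKM in lncOL1KO and 0.0231 and 0.131 FPKM in Ctrl, and Kcnj8, the subunit of mural cells, at 0 in all 4 libraries.

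The 250 bases before an annotated start are shown for the 3 channel genes that the authors' deposited table calls lower, Kcnj12, Kcnd2 and Kcna2, and for Kcnj10, the most abundant one. They come from RefSeq (GRCm38.p6, plus strand) and each ends just before the start site. Capitals mark the GC box letters GGGCGG, the binding motif of Sp1, on either strand.
Kcnj12 (chr11:61065554-61065803): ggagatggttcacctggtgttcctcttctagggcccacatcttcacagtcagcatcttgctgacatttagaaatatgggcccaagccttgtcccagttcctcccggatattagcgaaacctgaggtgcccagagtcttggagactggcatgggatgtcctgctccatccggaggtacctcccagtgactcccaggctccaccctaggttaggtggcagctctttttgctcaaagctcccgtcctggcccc
Kcnd2 (chr6:21215096-21215345): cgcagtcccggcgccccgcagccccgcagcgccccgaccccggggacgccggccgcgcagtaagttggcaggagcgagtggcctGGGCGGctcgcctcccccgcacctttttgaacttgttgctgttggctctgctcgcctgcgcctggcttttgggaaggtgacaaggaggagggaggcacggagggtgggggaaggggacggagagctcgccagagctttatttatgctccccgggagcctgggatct
Kcna2 (chr3:107101317-107101566): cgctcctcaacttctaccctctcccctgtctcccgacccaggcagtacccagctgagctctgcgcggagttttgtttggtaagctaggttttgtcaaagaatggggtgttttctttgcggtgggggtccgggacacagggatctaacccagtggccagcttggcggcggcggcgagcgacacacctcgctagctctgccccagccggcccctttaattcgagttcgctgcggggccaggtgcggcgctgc
Kcnj10 (chr1:172340960-172341209): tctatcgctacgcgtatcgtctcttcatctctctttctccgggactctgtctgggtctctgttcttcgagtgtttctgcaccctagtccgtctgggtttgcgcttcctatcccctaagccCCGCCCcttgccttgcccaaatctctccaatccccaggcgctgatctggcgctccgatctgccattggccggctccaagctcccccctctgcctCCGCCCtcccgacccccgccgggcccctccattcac
The windows differ in base composition. That of Kcnj12 holds 4 CpG pairs, and those of Kcnd2, Kcna2 and Kcnj10 hold 22, 18 and 17 CpG pairs, against a median of 6 over the 32851 promoters in the table. The GC box letters occur 2 times in the Kcnj10 window, 1 time in that of Kcnd2 and not in those of Kcnj12 and Kcna2, while 32.7% of all such windows hold a match. The E-box letters CANNTG, searched on both strands, occur 1 time in the Kcnj12 window and 2 times in that of Kcna2, and 66.2% of all windows hold them. TATAAA, found in 12.4% of all windows, and ACAAT, a core of SOX binding motifs found in 27.7%, are in none of the 4 windows. The Kcnj12 window lies before an inner start, 43240 bases downstream of the gene start in the files, and that of Kcnd2 before a start at -763 bases from it, whose following bases matched no GENCODE transcript. Which starts were used in these cells cannot be read from gene-level FPKM.

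The two-pore-domain genes encode leak channels that hold the resting potential. Of 14 genes, 2 entered the tests. Kcnk2, a leak channel opened by stretch and lipids, had 4.66 and 4.84 FPKM in lncOL1KO, against 5.02 and 4.84 FPKM in Ctrl (log2 fold change -0.04, 95% interval -0.23 to 0.14), and shares 12.2% of its exon bases with an antisense gene. Its relative Kcnk10 had 2.63 and 2.53 FPKM in lncOL1KO, against 3.04 and 2.55 FPKM in Ctrl. The groups of both overlapped and neither passed (limma adjusted p = 0.880 and 0.820). Kcnk1 was at 0.797 and 0.881 FPKM in lncOL1KO and 0.625 and 0.650 FPKM in Ctrl, below the limit.

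The 17 genes of voltage-gated potassium channel pores were led by 2 members of the Shaker family. Kcna6 had 30.6 and 30.7 FPKM in lncOL1KO, against 31.5 and 31.5 FPKM in Ctrl, with a log2 fold change of -0.04 and a 95% interval of -0.20 to 0.12 (limma adjusted p = 0.872). Opposite-strand exons of Gm26673 cover 39.6% of its exon bases. No source states whether reads were counted by strand, so reads of both genes cannot be told apart. Kcna2, whose channels flank the node of Ranvier in axons, had 15.6 and 14.4 FPKM in lncOL1KO, against 16.6 and 17.6 FPKM in Ctrl. Both knockout values of Kcna2 were below both control values, yet it did not pass (log2 fold change -0.17, limma adjusted p = 0.389). In the authors' deposited table its log2 fold change is -0.22 and its q is 0.0231.

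Kcna1, the usual partner of Kcna2 in those channels, had 4.68 and 2.87 FPKM in lncOL1KO and 3.71 and 3.61 FPKM in Ctrl libraries. Its knockout libraries enclosed the controls, and its interval of -0.40 to 0.42 on the log2 scale was the widest of the tested members. Kcna3, a channel linked with proliferation of precursors and found in microglia, had 0.714 and 0.726 FPKM in lncOL1KO and 1.06 and 1.002 FPKM in Ctrl. It stayed below the testing limit with the knockout values under the control values, while the summed microglia markers were higher in lncOL1KO.

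Among tested members, Kcnd2, an A-type channel of the Shal family, had the most negative log2(FPKM + 1) difference after that of Kcnj12. It had 4.26 and 4.58 FPKM in lncOL1KO, against 5.78 and 6.44 FPKM in Ctrl, without overlap. The log2 fold change of -0.39 did not pass (SE 0.085, limma adjusted p = 0.102), while the authors' deposited table lists -0.47 at q = 0.00199. Kcnd3, a pore gene of the same family, was higher in level and closer between groups, at 8.81 and 8.79 FPKM in lncOL1KO and 9.06 and 9.41 FPKM in Ctrl (log2 fold change -0.06, limma adjusted p = 0.789).

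Kcnc1, a fast delayed rectifier of the Shaw family, had 1.68 and 1.70 FPKM in lncOL1KO, against 1.57 and 1.55 FPKM in Ctrl, without overlap (log2 fold change 0.07, limma adjusted p = 0.825).

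The 10 silent or modifier subunit genes, which form no channel on their own, were all near 0. The highest of them, Kcng2, had 0.0982 and 0.0816 FPKM in lncOL1KO and 0.0925 and 0.0723 FPKM in Ctrl libraries. Among 11 accessory genes, those of the KChIP type, calcium sensors that bind A-type channels, led. Kcnip3, also known as the transcriptional repressor DREAM, had 19.6 and 20.8 FPKM in lncOL1KO, against 18.0 and 16.95 FPKM in Ctrl (log2 fold change 0.20, limma adjusted p = 0.301). Kcnip2 had 3.24 and 4.005 FPKM in lncOL1KO and 3.64 and 3.51 FPKM in Ctrl, and Kcnab2, a beta subunit of Shaker channels, had 2.26 and 2.50 FPKM in lncOL1KO and 2.35 and 2.40 FPKM in Ctrl, so that both overlapped.

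The EAG and KCNQ families were present at low levels. Kcnh2, the ERG channel gene, had 2.005 and 2.02 FPKM in lncOL1KO, against 1.57 and 1.74 FPKM in Ctrl (log2 fold change 0.18, limma adjusted p = 0.472). Kcnq3, a subunit of the M-current channels that damp firing, had 3.61 and 3.17 FPKM in lncOL1KO, against 3.17 and 2.70 FPKM in Ctrl, with overlap (log2 fold change 0.16, limma adjusted p = 0.584).

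Of the calcium-activated families, the accessory subunit exceeded its own pore gene. Kcnmb4, the brain-type beta subunit of the large-conductance BK channel, had 10.2 and 10.2 FPKM in lncOL1KO, against 13.4 and 11.9 FPKM in Ctrl. Kcnma1, the BK pore gene, had 1.33 and 1.31 FPKM in lncOL1KO and 1.22 and 1.19 FPKM in Ctrl, a lower level per kilobase in each library. The knockout values of Kcnmb4 lay below both control values, and its log2 fold change of -0.28 did not pass (SE 0.081, limma adjusted p = 0.187). Its exons overlap those of 2 antisense genes, with 20.8% of the exon bases shared with Kcnmb4os2 and 10.7% with Kcnmb4os1. The second of these was listed at 4.04 and 4.02 FPKM in lncOL1KO, against 5.78 and 3.99 FPKM in Ctrl. Kcnmb1, the smooth muscle beta subunit, was listed at 0.0134 and 0 FPKM in lncOL1KO and at 0 in both Ctrl libraries, beside the higher Tagln and Acta2 in lncOL1KO.

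The small-conductance channel gene Kcnn3 had 1.45 and 1.19 FPKM in lncOL1KO, against 1.36 and 1.21 FPKM in Ctrl, with overlap. Kcnn1, just under the testing limit, had 0.985 and 0.973 FPKM in lncOL1KO and 1.10 and 0.783 FPKM in Ctrl, and Kcnn2 had 0.350 and 0.394 FPKM in lncOL1KO and 0.670 and 0.637 FPKM in Ctrl. Kcnn2 alone of these stood apart between the groups, below the limit for testing. The sodium-activated channel gene Kcnt1 was at 0.707 and 1.12 FPKM in lncOL1KO and 0.578 and 0.595 FPKM in Ctrl.

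**Figure D2:**
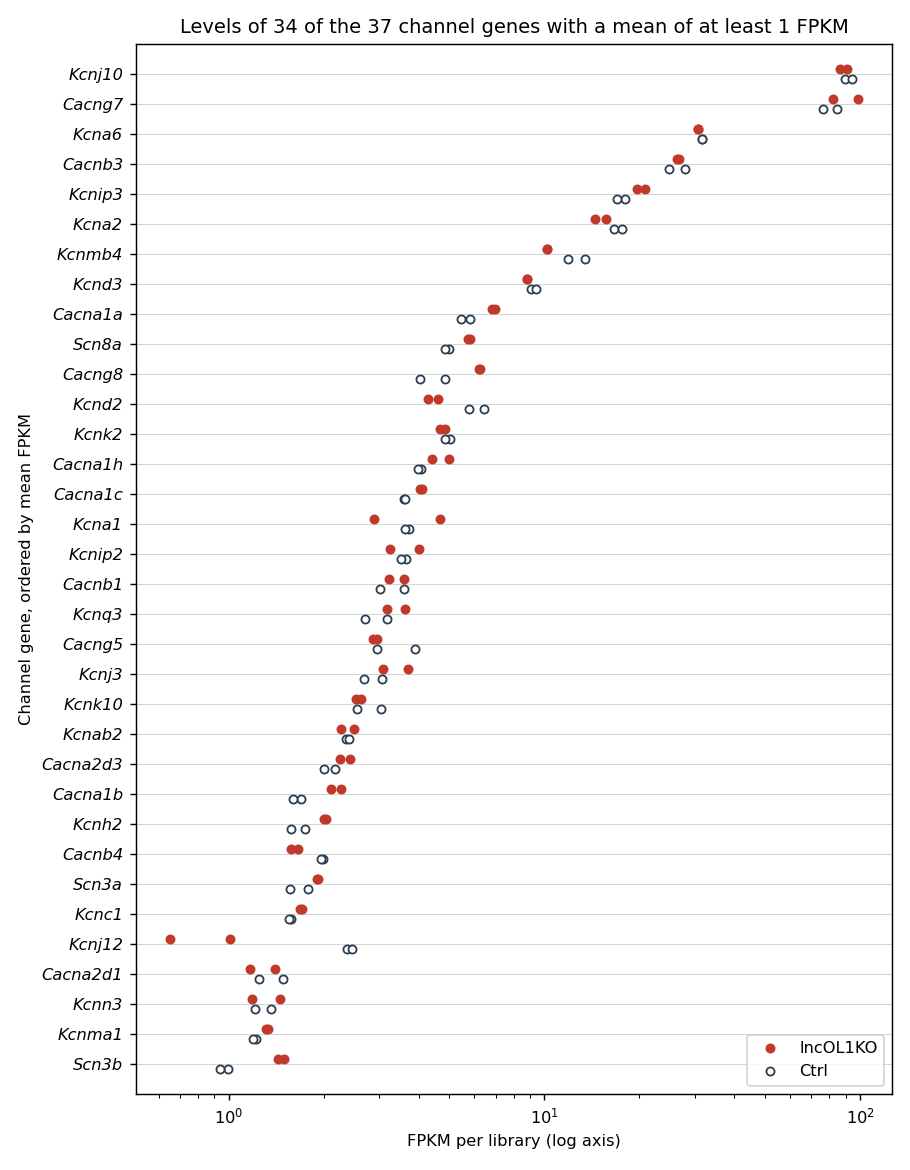
FPKM (log axis) of 34 of the 37 channel genes that entered the tests, ordered by mean, with both lncOL1KO libraries (filled) above both Ctrl libraries (open) in each row. Kcnj10 and Cacng7 lie highest, and Kcnj12 shows the widest relative gap between the groups.

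Of the 9 pore-forming sodium channel genes under these symbols, 2 entered the tests. Scn8a, the channel of mature nodes of Ranvier, had 5.71 and 5.82 FPKM in lncOL1KO, against 4.99 and 4.83 FPKM in Ctrl (log2 fold change 0.19, limma adjusted p = 0.313). Scn3a, known from the embryonic brain, had 1.90 and 1.92 FPKM in lncOL1KO, against 1.78 and 1.56 FPKM in Ctrl (log2 fold change 0.13, limma adjusted p = 0.660). Scn1a was at 0.117 and 0.107 FPKM in lncOL1KO and 0.0810 and 0.115 FPKM in Ctrl, and the other 6, those of heart, muscle and peripheral nerve among them, had means under 0.1 FPKM. Scn2a1, a further brain sodium channel gene whose symbol the rule does not take, had 1.13 and 0.866 FPKM in lncOL1KO and 0.722 and 0.655 FPKM in Ctrl.

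Scn3b was the most abundant of the 4 sodium channel beta subunits, which anchor and tune the pore. It had 1.43 and 1.497 FPKM in lncOL1KO, against 0.994 and 0.936 FPKM in Ctrl, and the knockout mean was 1.52 times the control mean. The log2 fold change of 0.33 did not pass (SE 0.102, limma adjusted p = 0.224), and its control mean was under 1 FPKM, so it entered the tests through the knockout values. Scn4b was at 0 in all 4 libraries.

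Among the calcium channel pores, 4 of 10 entered the tests and all 4 had both knockout values above both control values, as did 22.6% of all genes tested. Cacna1a, the pore of P/Q-type channels of nerve terminals, had 6.81 and 6.95 FPKM in lncOL1KO, against 5.82 and 5.45 FPKM in Ctrl (log2 fold change 0.25, limma adjusted p = 0.209). Cacna1b, the pore of N-type channels, had 2.10 and 2.27 FPKM in lncOL1KO, against 1.69 and 1.595 FPKM in Ctrl (log2 fold change 0.27, limma adjusted p = 0.274). Cacna1h, a low-threshold T-type pore, had 4.41 and 4.98 FPKM in lncOL1KO, against 4.06 and 3.98 FPKM in Ctrl. Cacna1c, the L-type pore described in oligodendrocyte precursors, had 4.03 and 4.10 FPKM in lncOL1KO, against 3.58 and 3.62 FPKM in Ctrl. None of the 4 was called over all genes tested, with log2 fold changes of 0.18 and 0.14 for the last pair (limma adjusted p = 0.429 and 0.512). Cacna1d, the other L-type pore of brain, was under the limit at 1.02 and 0.941 FPKM in lncOL1KO and 0.659 and 0.800 FPKM in Ctrl, also without overlap. Cacna1g, a T-type pore, was likewise under the limit at 0.748 and 0.688 FPKM in lncOL1KO and 0.482 and 0.459 FPKM in Ctrl, without overlap.

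Beta and alpha2delta subunits accompany many calcium channel pores. Cacnb3, the most abundant beta subunit, had 26.6 and 26.3 FPKM in lncOL1KO, against 27.9 and 24.8 FPKM in Ctrl, a log2 fold change of 0.01 with a 95% interval of -0.18 to 0.20 (limma adjusted p = 0.981). Cacnb1 had 3.21 and 3.58 FPKM in lncOL1KO and 3.59 and 3.02 FPKM in Ctrl. Cacnb4 was the 1 tested beta subunit with both knockout values lower, at 1.58 and 1.66 FPKM in lncOL1KO and 1.98 and 1.96 FPKM in Ctrl (log2 fold change -0.18, limma adjusted p = 0.465). Of the alpha2delta subunits, which bring the pore to the membrane, Cacna2d3 had 2.42 and 2.24 FPKM in lncOL1KO and 2.004 and 2.17 FPKM in Ctrl. Cacna2d1 had 1.402 and 1.16 FPKM in lncOL1KO and 1.24 and 1.48 FPKM in Ctrl. Cacna2d2, under the testing limit, had 0.829 and 0.846 FPKM in lncOL1KO, against 0.446 and 0.330 FPKM in Ctrl, with a ratio of group means of 2.16. In the authors' deposited table it did not pass (log2 fold change 1.05, q = 0.134).

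The gamma subunit genes examined were led by Cacng7, a TARP of AMPA receptors, which was second only to Kcnj10 in mean level among the 130 genes. Cacng7 had 82.2 and 98.5 FPKM in lncOL1KO, against 76.5 and 84.4 FPKM in Ctrl, with overlap (log2 fold change 0.16, limma adjusted p = 0.582). Its neighbour Cacng8, another TARP, had 6.22 and 6.25 FPKM in lncOL1KO, against 4.04 and 4.84 FPKM in Ctrl. Both knockout values of Cacng8 were above both control values. Its log2 fold change of 0.41 did not pass (SE 0.094, limma adjusted p = 0.110). This was the highest of the tested members on the log2(FPKM + 1) scale only. By the ratio of group means, Scn3b, at 1.52, stood above Cacng8. The authors' deposited table gives lower levels for Cacng8, 3.35 FPKM in the knockout and 2.57 FPKM in the control, with q = 0.608. Cacng5 had 2.85 and 2.95 FPKM in lncOL1KO and 2.94 and 3.90 FPKM in Ctrl. Cacng2, the founding TARP, known from cerebellar granule cells, was at 0 in both lncOL1KO libraries and at 0.0211 and 0 FPKM in Ctrl.

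**Figure D3:**
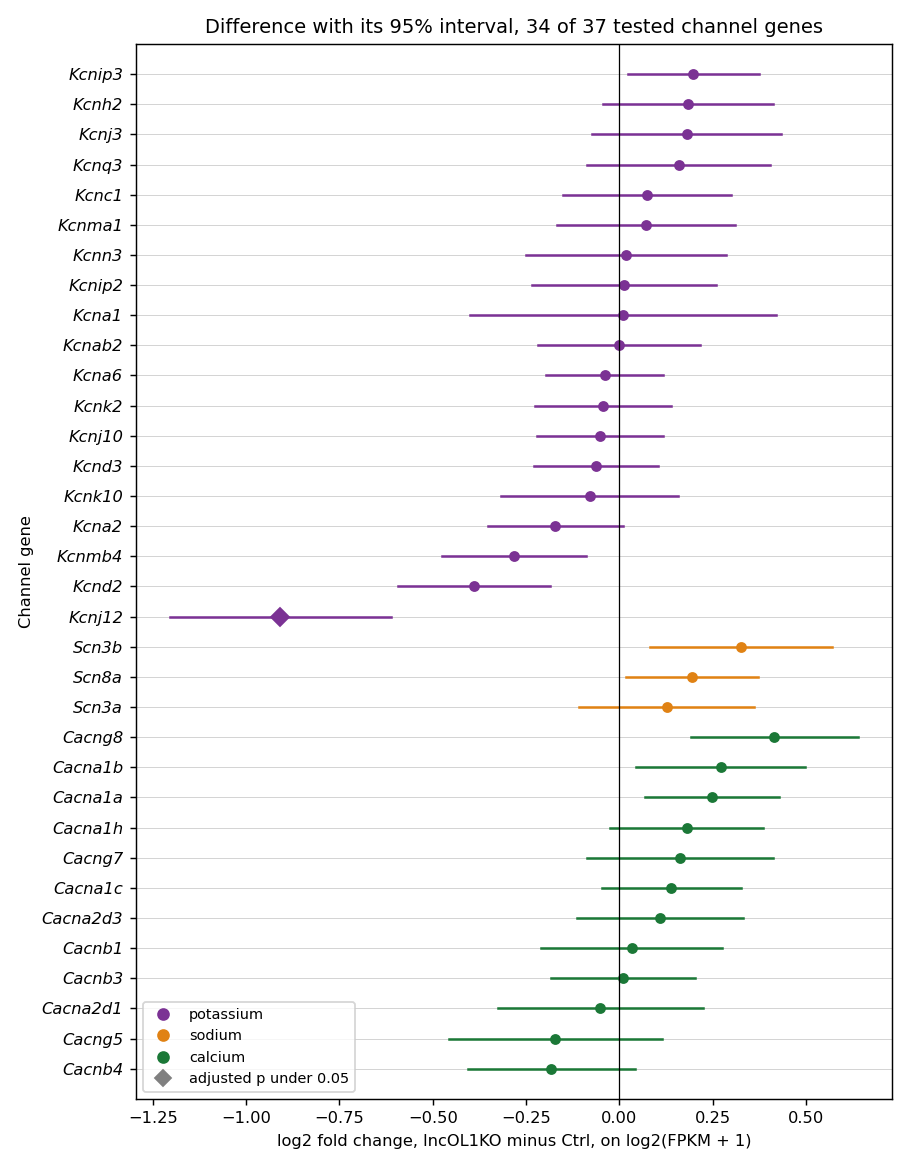
Log2 fold change, lncOL1KO minus Ctrl on the log2(FPKM + 1) scale, for 34 of the 37 tested channel genes with its 95% interval from limma, coloured by the ion of the family name. The diamond marks Kcnj12, the 1 gene with an adjusted p under 0.05.

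Counted over the 37 tested members, 0 were called higher and 1 was called lower (limma, adjusted p under 0.05), against 0.528% called higher and 0.783% called lower of the 11361 genes tested. At an unadjusted p under 0.05, 7 were higher and 3 were lower, that is 18.9% and 8.11%, against 7.13% and 6.58% of all genes tested. Groups without overlap were found for 17 members with higher and 7 with lower knockout values, or 45.9% and 18.9%, against 22.6% and 20.7% of all genes tested. The median log2 fold change was 0.07 over the 37 members and 0.005 over all genes tested. Among the members with a p under 0.05 were Cacng8, Scn3b, Cacna1a, Cacna1b, Kcnip3 and Scn8a on the higher side and Kcnj12, Kcnd2 and Kcnmb4 on the lower side. In the authors' deposited table, 0 of 53 members tested there were significant and higher and 3 were significant and lower, against 1.74% and 4.04% of its 12519 tests.

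The direction was also counted by ion class. Of 12 tested members of calcium channel families 9 had a positive log2 fold change, of 3 sodium channel members 3, and of 22 potassium channel members 12, against 51.4% of all genes tested. The summed levels were 147.5 and 164.4 FPKM in lncOL1KO and 137.9 and 143.8 FPKM in Ctrl libraries for calcium channel families. They were 9.90 and 10.4 FPKM in lncOL1KO and 9.12 and 8.05 FPKM in Ctrl for sodium channels. For potassium channels they were 235.5 and 231.0 FPKM in lncOL1KO and 237.1 and 239.3 FPKM in Ctrl. No test was made of these sums. Of 15 genes that mark neurons, where many of these channels are known, 6 were tested and 4 of them had a positive log2 fold change. Dcx had 11.2 and 12.3 FPKM in lncOL1KO and 8.45 and 9.49 FPKM in Ctrl, and Elavl3 fell to 85.1 and 79.9 FPKM in lncOL1KO, against 119 and 117 FPKM in Ctrl (log2 fold change -0.51, limma adjusted p = 0.0263, 0.130 to 0.218 with single libraries left out and 0.0855 with no filter). All 15 summed to 235 and 230.3 FPKM in lncOL1KO, against 249.9 and 256 FPKM in Ctrl. Elavl3 carried this lower sum, and the median log2 fold change of the 6 tested was 0.12. Map2 was at 106 and 105 FPKM in lncOL1KO and 89.1 and 97.0 FPKM in Ctrl, and Snap25 at 1.34 and 1.57 FPKM in lncOL1KO and 1.63 and 1.001 FPKM in Ctrl. Rbfox3, Stmn2, Slc17a6 and Slc17a7, further neuronal markers, were at most 0.226 FPKM in every library.

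**Figure D4:**
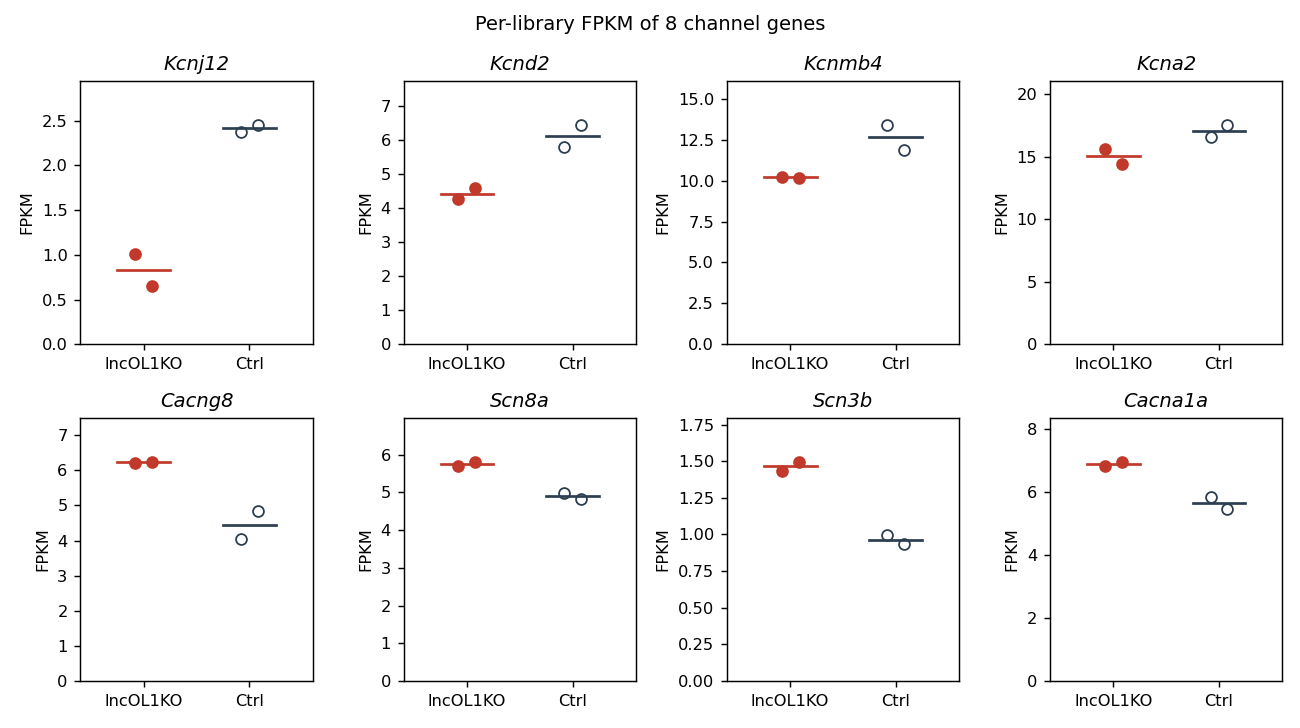
FPKM in each library of 8 channel genes, chosen after their values were seen, with lncOL1KO (filled) left of Ctrl (open) and a line at the mean of each group; every axis starts at 0. Kcnj12, Kcnd2, Kcnmb4 and Kcna2 lie lower in lncOL1KO and Cacng8, Scn8a, Scn3b and Cacna1a higher, all without overlap, and Kcnj12 alone was called.

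Members that lie near one another in the genome differed widely in level. In each of the stretches described 1 member carried most of the summed level of the members (coordinates of mm10 as in the files). In the 208-kb stretch of chromosome 6 that holds 3 Shaker genes, Kcna6 had a mean of 31.1 FPKM, Kcna1 of 3.72 FPKM and Kcna5 of 0.138 FPKM over the 4 libraries. The matching stretch of chromosome 3 held Kcna2 at 16.1 FPKM, Kcna3 at 0.875 FPKM and Kcna10 at 0.0333 FPKM. Kcnj9 (chr1:172321033-172329263), a subunit of G protein-gated rectifiers, lies beside Kcnj10 (chr1:172341210-172374085) at lower coordinates. It had a mean of 0.240 FPKM, against 90.4 FPKM for its neighbour. On chromosome 7, Cacng7 at 85.4 FPKM is followed by Cacng8 at 5.34 FPKM and by Cacng6, listed at 0 in all 4 libraries. Among the members in the sodium channel cluster of chromosome 2, Scn3a was at 1.79 FPKM, Scn1a at 0.105 FPKM, Scn9a at 0.0306 FPKM and Scn7a at 0.0127 FPKM. Scn2a1, outside the rule and not counted here, had a mean of 0.843 FPKM.

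Below the testing limit, 19 of 79 members had both knockout values above both control values and 7 had both below, or 24.1% and 8.86%, against 20.6% and 12.4% of the 6036 genes in that range. Just inside the limit were Scn3b and Kcnma1, at means of 1.21 and 1.26 FPKM, and just outside it Kcnn1 and Kcna3, at 0.960 and 0.875 FPKM. Kcnk13 and Kcnn4 are, besides Kcna3, among the members known from microglia and do not stand for all of them. Kcnk13 was at 0.223 and 0.424 FPKM in lncOL1KO and 0.212 and 0.201 FPKM in Ctrl. Kcnn4 was at 0.0376 and 0.0308 FPKM in lncOL1KO and 0 in both Ctrl libraries. The number of reads behind such low values is not given in the files.

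Genes that work with these channels were examined from lists chosen beside the members. Of 11 listed accessory genes of potassium channels outside the rule, 4 were tested. Of these limma called 0, while 2 were higher at p under 0.05 before adjustment and 0 were lower, against 7.13% higher and 6.58% lower of all genes tested. Dpp10 and Dpp6, the large accessory subunits of A-type channels, had 6.13 and 5.80 FPKM and 4.67 and 4.27 FPKM in lncOL1KO, against 4.62 and 5.35 FPKM and 3.73 and 3.33 FPKM in Ctrl (log2 fold changes 0.22 and 0.27, limma adjusted p = 0.345 and 0.247). Both thus lay higher in the knockout while Kcnd2, a pore they serve, lay lower. Of 11 tested partners of sodium and calcium channels, 1 was called lower and 0 higher, against 0.783% lower and 0.528% higher of all genes tested. Nedd4l, a ubiquitin ligase that removes sodium and potassium channels from the membrane, fell to 2.81 and 2.69 FPKM in lncOL1KO, against 4.46 and 4.63 FPKM in Ctrl (log2 fold change -0.56, limma adjusted p = 0.0303), and this call did not hold with any single library left out (0.173 to 0.251) or with no filter (0.127).

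Of 14 tested genes of other cation channels, 1 was called higher and 0 lower by limma, where 0.528% of all genes tested were called higher. Asic1, an acid-sensing sodium channel gene, rose to 17.9 and 18.6 FPKM in lncOL1KO, against 13.6 and 13.1 FPKM in Ctrl (log2 fold change 0.43, limma adjusted p = 0.0461), and this call did not hold with any single library left out (0.206 to 0.306), with no filter (0.116), with the limit at 0.5 FPKM (0.0508) or without the trend (0.0662). Trpc4, a cation channel driven by receptors, had 14.1 and 13.8 FPKM in lncOL1KO and 12.9 and 12.4 FPKM in Ctrl. Among 20 tested pumps and cotransporters limma called 0, while 3 were higher and 5 lower at p under 0.05 before adjustment, beside 7.13% and 6.58% of all genes tested. Atp1b2, a subunit of the sodium pump, had 117 and 122 FPKM in lncOL1KO and 109.8 and 125 FPKM in Ctrl, and Slc12a2, the inward chloride cotransporter, had 59.9 and 58.2 FPKM in lncOL1KO, against 67.7 and 70.4 FPKM in Ctrl (log2 fold change -0.22, limma adjusted p = 0.217). Among 14 tested anchoring genes limma called 0, while 2 were higher and 2 lower by the same measure, to be read against the same shares. Nfasc, whose glial form holds the paranode, had 337 and 340.0 FPKM in lncOL1KO, against 446 and 437 FPKM in Ctrl, without overlap and just short of a call (log2 fold change -0.38, limma adjusted p = 0.0561). It was called with a pseudocount of 0.1 (limma adjusted p = 0.0416), after TPM scaling (0.0385) and after quantile normalization (0.0361). Nfasc was not called with a pseudocount of 0.5, with no filter, with the limit at 0.5 FPKM or without the trend. The sulfonylurea receptor genes Abcc8 and Abcc9, partners of the ATP-sensitive channel, were at most 0.117 FPKM in every library.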

How the data were processed

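RNA of 2 lncOL1KO and 2 Ctrl samples was sequenced after TruSeq library preparation, per the labels' protocols. Tools listed in the submitters' processing notes are CASAVA, TopHat, Cufflinks and Cuffdiff, on mm10, without versions or roles. Neither annotation nor strand setting is given in the sources used here. Deposited by the authors were 1 table of gene-level FPKM per sample, and a Cuffdiff table with pooled FPKM per group, a log2 fold change (a score column here, since infinite ratios hold a placeholder) and p-values with q-values, per the file headers. The depth is not given: summed FPKM was 373484 to 383128 per library.

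Rows of the same symbol were summed (258 symbols, 0 members) and 9 symbols with another status than OK were dropped. log2(FPKM + 1) of the 11361 genes that averaged 1 FPKM or more went into limma 3.58.1 in R 4.3.3 (eBayes with an expression trend, no covariate), lncOL1KO minus Ctrl. Benjamini-Hochberg adjustment ran over all of them, and called means an adjusted p under 0.05. Alternatives were pseudocounts of 0.5 and 0.1, no filter or one at 0.5 FPKM, quantile normalization, TPM scaling, no trend, a replicate block and each library left out. The fit was also run on simulated data with independent normal noise, which cannot show how 2 possibly technical libraries a group behave. No result here rests on that run. With 2 libraries a group an exact permutation test cannot pass 0.05, so none was run. The authors' FPKM in the control was 0.579 to 1.18 times the mean of the control libraries over tested members. Genes were named by rule: called members, the 20 highest means, the 15 smallest p, up to 3 per family, and in lists the called and up to 3 most abundant genes. Others were picked after their values were seen. The members and lists were chosen with earlier results of these data known. Exons were compared with GENCODE M21 (GRCm38), where 12 of the 37 tested members share exon bases with an opposite-strand gene. A RefSeq promoter was held for 96 members. Counts cover all members, and some genes are not reported here by name.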

Additional observations from a re-analysis of the deposited data

How the results depend on the processing

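With no filter, 1 gene was called higher and 3 lower of 17397, and 0 of 116 channel genes lower. With each library left out the counts of all genes were 11 to 16 higher and 5 to 26 lower, with 0 channel genes lower each time. After quantile normalization 0 channel genes were lower. With the replicate number as a block, 158 genes were higher and 183 lower, and 0 channel genes were higher and 1 lower; Nfasc was then called lower (adjusted p = 0.0130). The samples share only a number: deviations of same-numbered libraries correlated at r = -0.052 across all genes tested and 0.167 across the channel genes. No channel gene was called higher in any fit run (limma; 7 were higher at an unadjusted p under 0.05). The 37 members had 24 positive log2 fold changes, and 21 to 25 over the alternatives. Over the same fits the median log2 fold change ran from -0.0061 to 0.013 for all genes. For the tested members it ran from 0.059 to 0.112. Quantile normalization gave log2 fold changes of -0.0126 for Kcna1 and -0.0138 for Kcnip2, opposite in sign. With each library left out they crossed 0, at -0.0670 to 0.120 for Atp1b2, -0.127 to 0.0249 for Cacna2d1, -0.0635 to 0.129 for Cacnb1, -0.0755 to 0.0925 for Cacnb3, -0.0291 to 0.130 for Calm2. They did so as well at -0.0373 to 0.124 for Calm3, -0.267 to 0.285 for Kcna1, -0.0519 to 0.05003 for Kcnab2, -0.108 to 0.130 for Kcnip2, -0.173 to 0.0144 for Kcnk10, -0.0636 to 0.0992 for Kcnn3, -0.0970 to 0.0454 for Mcoln1. The cause was not tested. FPKM without read counts limit what can be said of genes under 1 FPKM.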
